A study of Mus musculus with 51 samples.

Results

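H3K27me3, the trimethylated form of lysine 27 on histone H3, was mapped by ChIP-seq in MC3T3-E1 cells grown with Vitamin C (VitC+) or without it (VitC-). These 4 of the 51 samples of the study were taken by their labels, as 2 dishes with VitC and 2 without. MC3T3-E1 is a pre-osteoblast line from the calvaria of C57BL/6 mice, and the line used is a single subclone. All dishes received 4 mM β-glycerophosphate, the phosphate source for mineralization, and the VitC+ dishes also received 50 µg/ml VitC. The labels give 28 days of culture, whereas the names of the peaks and the study's methods give 7 days. Each group is represented by 1 list of broad peaks, with no list per dish, so the differences between the lists have no replicate error and no test. The peak names carry the number 1, and whether both dishes were pooled is not given in the sources used here. Read depth is also unknown, because the lists hold no counts.

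H3K27me3 is written by Polycomb repressive complex PRC2, whose catalytic subunit is EZH1 or EZH2, and it marks genes that are kept silent, above all developmental regulators of other lineages. It often spreads over wide domains that can hold whole gene clusters. The KDM6 demethylases remove it in a reaction that needs iron and α-ketoglutarate, and VitC acts as a cofactor for enzymes of this family. The 2 lists therefore address how wide the domains were, where they lay and which gene classes they held in the presence and absence of VitC.

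The promoters below are shown because they stand for the states met in both lists: Wnt7a with a CpG-rich promoter inside a wide domain, Dll4 and Sost as bone-related genes inside domains, Ambp as a liver gene with few CpGs inside a domain, and Runx2 and Col1a2 as osteoblast genes free of the mark. Each sequence runs 5′ to 3′ on the strand of the gene from 250 bases before to 25 bases after the transcription start site (TSS), from RefSeq on build GRCm38.p6, with every CG dinucleotide in capitals. At least 1 CG was present in 95.3% of the 16853 promoters of 300 bases that could be matched, with a median of 14.
Wnt7a, chr6:91411329-91411603, minus strand: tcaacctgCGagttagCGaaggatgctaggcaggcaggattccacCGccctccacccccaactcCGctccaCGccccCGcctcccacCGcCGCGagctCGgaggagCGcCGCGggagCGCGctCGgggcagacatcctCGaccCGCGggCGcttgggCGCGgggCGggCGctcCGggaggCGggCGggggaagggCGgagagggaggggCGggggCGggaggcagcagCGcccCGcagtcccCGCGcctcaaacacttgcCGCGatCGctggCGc
Dll4, chr2:119325534-119325808, plus strand: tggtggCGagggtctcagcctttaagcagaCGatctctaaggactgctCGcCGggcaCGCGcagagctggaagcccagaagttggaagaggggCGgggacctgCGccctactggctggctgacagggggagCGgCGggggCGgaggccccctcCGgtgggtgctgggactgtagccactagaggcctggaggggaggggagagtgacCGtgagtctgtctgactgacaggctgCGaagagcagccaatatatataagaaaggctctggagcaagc
Sost, chr11:101966991-101967265, minus strand: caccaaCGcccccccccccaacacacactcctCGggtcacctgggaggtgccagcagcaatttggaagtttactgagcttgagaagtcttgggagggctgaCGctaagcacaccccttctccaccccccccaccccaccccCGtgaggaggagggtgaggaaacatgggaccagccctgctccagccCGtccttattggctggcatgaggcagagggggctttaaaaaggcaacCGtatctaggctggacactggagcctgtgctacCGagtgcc
Ambp, chr4:63154148-63154422, minus strand: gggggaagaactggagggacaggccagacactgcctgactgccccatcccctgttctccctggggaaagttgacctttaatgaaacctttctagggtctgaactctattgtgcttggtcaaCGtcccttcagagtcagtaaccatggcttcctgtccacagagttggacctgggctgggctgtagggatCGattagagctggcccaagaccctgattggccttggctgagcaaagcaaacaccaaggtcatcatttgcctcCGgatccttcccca
Runx2, chr17:44814603-44814877, minus strand: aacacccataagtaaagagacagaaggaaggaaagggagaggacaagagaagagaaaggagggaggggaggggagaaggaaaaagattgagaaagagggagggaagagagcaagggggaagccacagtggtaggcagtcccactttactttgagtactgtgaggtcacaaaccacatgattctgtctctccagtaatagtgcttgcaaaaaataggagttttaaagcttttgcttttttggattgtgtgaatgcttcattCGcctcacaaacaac
Col1a2, chr6:4505368-4505642, plus strand: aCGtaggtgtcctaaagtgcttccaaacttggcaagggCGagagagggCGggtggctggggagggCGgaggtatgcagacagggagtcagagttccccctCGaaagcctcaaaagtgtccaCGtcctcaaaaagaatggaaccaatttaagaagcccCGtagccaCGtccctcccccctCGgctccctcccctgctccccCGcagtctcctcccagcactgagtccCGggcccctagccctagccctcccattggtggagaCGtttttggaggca
The Wnt7a window held 38 CGs, the Dll4 window 14, the Sost window 7, the Ambp window 3, the Runx2 window 1 and the Col1a2 window 12. The first 4 lay under a peak in both lists, and no base within 30 kb of the Runx2 or Col1a2 TSS was covered in either list.

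The lists held nearly the same number of peaks but not the same length of genome. As deposited, 86322 VitC+ peaks covered 145 Mb, or 5.31% of the chromosomes, and 84228 VitC- peaks covered 233 Mb, or 8.56%. The VitC- length was 1.61 times the VitC+ length. Median peak width was 751 bp in VitC+ and 1033 bp in VitC-, and the width above which lay the wider peaks that make up 50% of the covered length (N50) was 3604 bp in VitC+ and 7201 bp in VitC-. Broad peaks accounted for much of the gap. Peaks of at least 10 kb numbered 1813 in VitC+ and 4450 in VitC-, and peaks of at least 50 kb numbered 26 and 235. The widest single peak spanned 118104 bp in VitC+ and 232121 bp in VitC-.

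The gap grew as the threshold on the q-value, the false discovery rate of a peak, was raised. At a false discovery rate of 0.05, 70649 VitC+ peaks covered 136 Mb and 78287 VitC- peaks covered 230 Mb. At a -log10 q of at least 2, 15596 peaks over 61.8 Mb remained in VitC+ and 29003 peaks over 168 Mb in VitC-. At a -log10 q of at least 3, the lists held 1038 peaks over 3.84 Mb and 4715 peaks over 69.5 Mb. At a -log10 q of at least 5, they held 392 peaks over 0.136 Mb and 677 peaks over 13.2 Mb, with a median width of 208 bp in VitC+ and 5933 bp in VitC-. The covered length of VitC+ relative to VitC- was thus 62.0%, 59.2%, 36.8%, 5.53% and 1.03% at these thresholds. The VitC- list kept 301 peaks of at least 10 kb at the highest threshold and the VitC+ list kept 0.

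**Figure D1:**
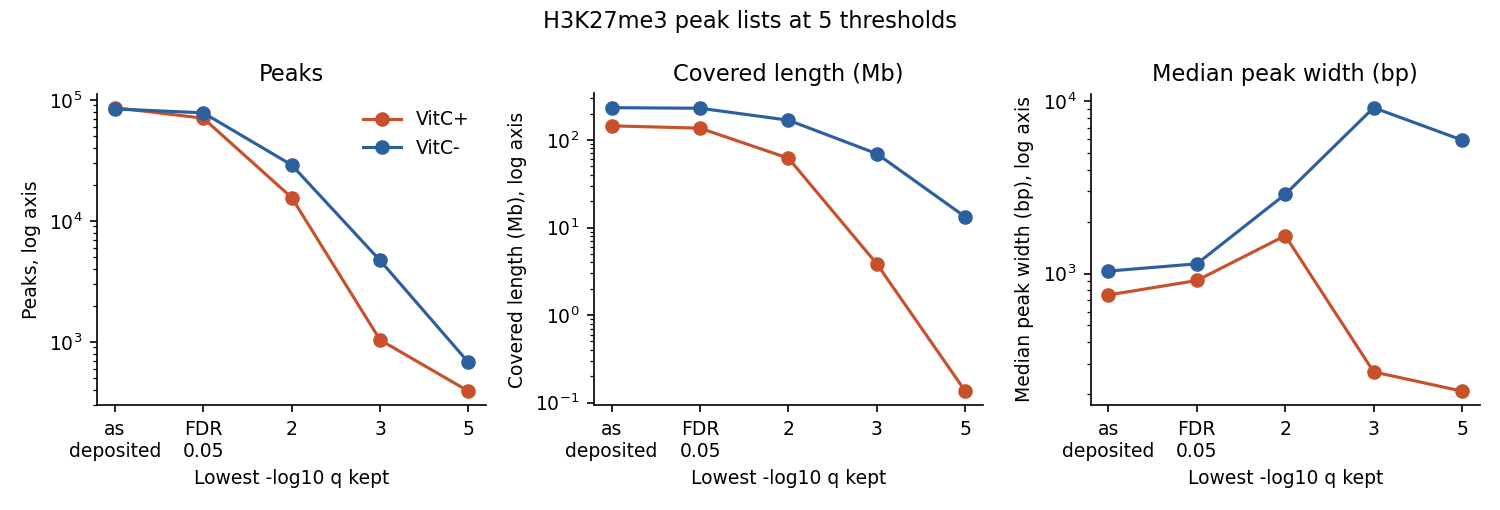
Number of peaks, covered length in Mb and median peak width in bp (vertical log axes) of the VitC+ and VitC- H3K27me3 lists, each 1 list per group, as deposited and at 4 higher thresholds on -log10 q. Covered length goes from 145 against 233 Mb to 0.136 against 13.2 Mb and the median width of VitC+ drops to 208 bp.

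Fold enrichment over the background did not follow the same order. Median fold was 2.77 in VitC+ and 2.44 in VitC-. With only peaks of at least 3-fold enrichment, VitC+ held 15005 peaks over 58.1 Mb and VitC- 2736 peaks over 49.7 Mb, so that the direction of the difference in covered length was the opposite of that in the full lists. At the same fold, VitC- peaks reached lower p- and q-values. Among peaks of 2.4 to 2.6-fold, the median -log10 p was 2.98 in VitC+ and 3.47 in VitC-, and among peaks of 3 to 3.2-fold it was 4.30 and 5.47. Peaks of 3 to 3.2-fold had a median width of 1707 bp in VitC+ and 9343.5 bp in VitC-. The relation between fold and p-value thus differed between the lists, and its part in the differences in number, width and length was not tested.

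Where a VitC+ and a VitC- peak each covered at least 50% of the other, the same regions could be set side by side. There were 11065 such pairs, 12.8% of VitC+ and 13.2% of VitC- peaks. Their median width was 2225 bp in VitC+ and 2625 bp in VitC-, and the VitC- peak was the wider in 68.5% of pairs. Fold was higher in VitC+ in 84.2% of pairs, with medians of 2.86 and 2.58, whereas -log10 q was higher in VitC- in 82.0% of pairs, with medians of 1.79 and 2.21.

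The peaks of highest -log10 q were not domains. The 10 highest of VitC+ were 185 to 748 bp wide with a -log10 q of 50.9 to 202, and the 10 highest of VitC- were 179 to 686 bp wide with a -log10 q of 52.1 to 91.0. None lay within 1 kb of a TSS, and all 20 overlapped an H3K9me3 peak of the same group. H3K9me3 is the mark of constitutive heterochromatin. At a -log10 q of at least 5, a limit chosen after these values were seen, 377 of the 392 VitC+ peaks and 299 of the VitC- peaks on the main chromosomes were narrower than 1 kb. Of these, 96.3% in VitC+ and 78.3% in VitC- overlapped an H3K9me3 peak, against 6.58% and 12.1% of all peaks. Their median share of repeat-masked bases was 100% in both lists, against 20.6% and 21.8% over all peaks and 36.4% in the genome. The 377 VitC- peaks of that strength that were 1 kb or wider had a median width of 24760 bp, and 98.9% of them overlapped a VitC+ peak. At a -log10 q of at least 5 the VitC+ list thus held mostly narrow repeat-masked sites, and the VitC- list such sites together with wide domains. With the threshold at 3, VitC+ still had 116 peaks of 10 kb and over, which made up 77.0% of its length.

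As examples of these narrow sites, 2 of the 10 highest VitC- peaks are shown. Both were at most 300 bp wide and overlapped a VitC+ peak. They were not the first 2 to meet these limits, since the VitC- peak of highest -log10 q also met them and is not shown. The sequences are on build GRCm38.p6, plus strand, with CG in capitals.
chr6:76848185-76848435: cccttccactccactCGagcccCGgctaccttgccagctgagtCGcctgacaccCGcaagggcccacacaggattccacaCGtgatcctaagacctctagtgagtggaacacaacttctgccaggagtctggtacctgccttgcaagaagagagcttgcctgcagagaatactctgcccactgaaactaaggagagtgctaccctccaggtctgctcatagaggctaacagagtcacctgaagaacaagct
chr12:44677981-44678277: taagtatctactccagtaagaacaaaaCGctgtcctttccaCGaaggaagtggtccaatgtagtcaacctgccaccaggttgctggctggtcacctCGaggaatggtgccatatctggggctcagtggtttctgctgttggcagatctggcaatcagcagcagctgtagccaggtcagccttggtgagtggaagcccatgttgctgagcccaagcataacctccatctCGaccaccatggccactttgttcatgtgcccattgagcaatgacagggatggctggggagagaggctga
Both lay between genes, 394 kb from the nearest protein-coding TSS, that of Lrrtm1, and 349 kb from that of Nrcam. All of their bases were repeat-masked. The first had a fold of 2.73 and a -log10 q of 50.9 in VitC+ and a fold of 3.14 and a -log10 q of 88.9 in VitC-. The second had a fold of 3.19 and a -log10 q of 47.4 in VitC+ and a fold of 4.65 and a -log10 q of 84.0 in VitC-.

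Most of the length covered in VitC+ was also covered in the longer VitC- list. In all, 122 Mb was covered in both lists, which was 84.3% of the VitC+ length and 52.3% of the VitC- length. Another 111 Mb was covered in VitC- alone and 22.7 Mb in VitC+ alone. With VitC- cut to the same length as VitC+, 67.9% of either list was covered in the other, and at a -log10 q of at least 5 the shares were 53.0% of VitC+ and 0.543% of VitC-. The share depended on width. Of the VitC- length in peaks under 1 kb, 14.3% was also covered in VitC+, and this share was 32.4% for peaks of 1 to 5 kb, 54.0% for 5 to 10 kb, 67.0% for 10 to 20 kb, 77.8% for 20 to 50 kb and 87.3% for peaks of 50 kb and over. All 235 VitC- peaks of 50 kb and over touched a VitC+ peak. In the other direction, the shares were 57.6% for VitC+ peaks under 1 kb and 99.6% for the 26 of 50 kb and over.

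Wide VitC- domains were met in VitC+ as several shorter peaks. A VitC- peak of 50 kb and over held a median of 8 VitC+ peaks and at most 35, and 98.7% of them held more than 1. For VitC- peaks of 20 to 50 kb the median was 6, and for those of 10 to 20 kb it was 4. Of the VitC- peaks under 1 kb, 77.5% held none. When peaks at most 3 kb apart were joined, VitC+ had 31883 runs with a median width of 1991 bp and VitC- had 33554 runs with a median width of 2849 bp. Runs of at least 100 kb numbered 155 and 300.

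**Figure D2:**
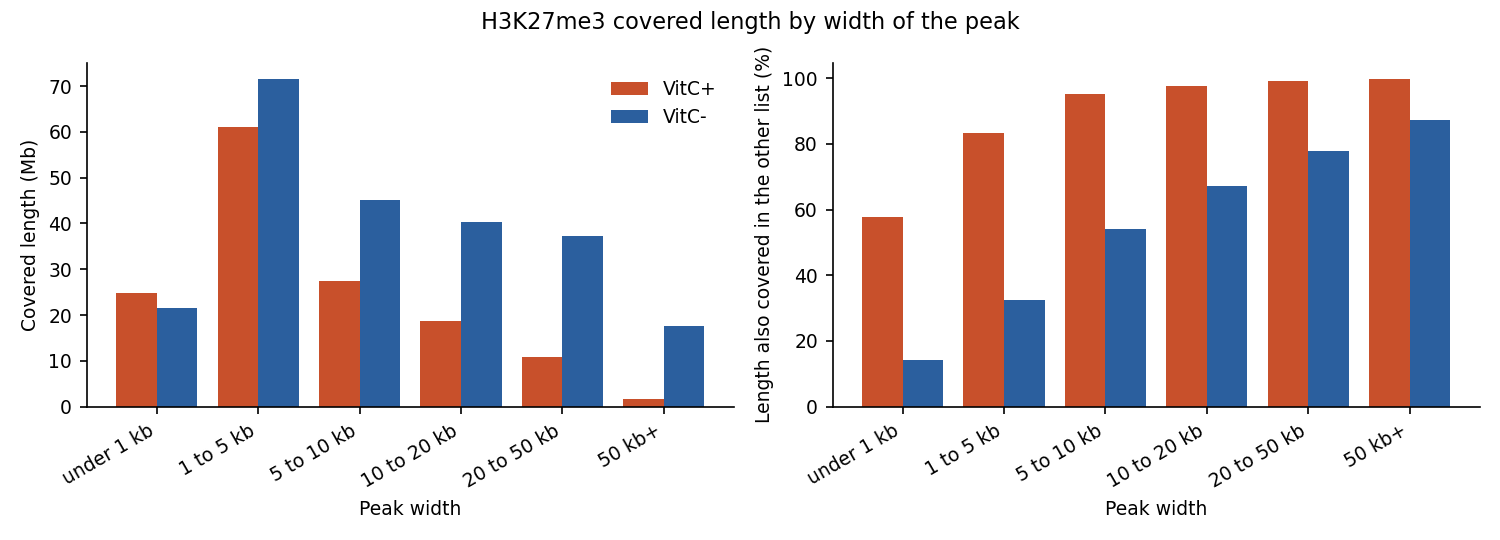
Covered length in Mb (left) and percent of that length also covered in the other list (right) by width of the peak, for the VitC+ and the VitC- H3K27me3 list. VitC- exceeds VitC+ in each class from 1 to 5 kb upward, and the shared part of the VitC- length goes from 14.3% in the narrowest to 87.3% in the widest class.

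The widest runs held developmental and neuronal genes in both lists. The 10 widest of VitC+ spanned 211 to 286 kb and the 10 widest of VitC- 304 to 442 kb, and 6 of the VitC+ runs overlapped one of the VitC- runs. Shared runs held Pax5, a regulator of B cells, Gata5, a factor of heart and gut endoderm, and Kcnk3 with Otof, a potassium channel and a protein of hair-cell synapses. The VitC+ set also held Pax2, a regulator of kidney and midbrain, Cux2 with Myl2, and a run of 226 kb with 9 TSSs that included Sost, Ppy, Pyy, Mpp2 and Mpp3. The widest VitC- run, of 442 kb, lay over Rbfox3, which encodes the neuronal protein NeuN, and the next, of 426 kb, held Hmx1, Adra2c and Cpz. The VitC- runs were covered to 75.2 to 90.3% in VitC+, and the VitC+ runs to 89.98 to 97.4% in VitC-.

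At single loci the outline of the domain was alike and its division was not. Within 100 kb of the TSS of Wnt7a, a Wnt ligand of limb and nervous system, VitC- had 4 peaks over 138 kb with a highest -log10 q of 7.78 and VitC+ had 16 peaks over 128 kb with a highest -log10 q of 3.45. At Hoxb13, 18 VitC- peaks covered 174 kb and 30 VitC+ peaks covered 155 kb. At Dll4, a Notch ligand of endothelium, 9 VitC- peaks covered 63.4 kb and 18 VitC+ peaks 48.6 kb. At Sost, which encodes sclerostin, the Wnt inhibitor made by osteocytes, 14 VitC- peaks covered 176 kb and 36 VitC+ peaks 146 kb. Col1a2, which encodes a chain of type I collagen, had its nearest peaks 40.6 kb downstream of the TSS in VitC+ and 41.3 kb in VitC-, and beyond that 6 VitC- peaks covered 45.5 kb and 2 VitC+ peaks 51.6 kb.

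**Figure D3:**
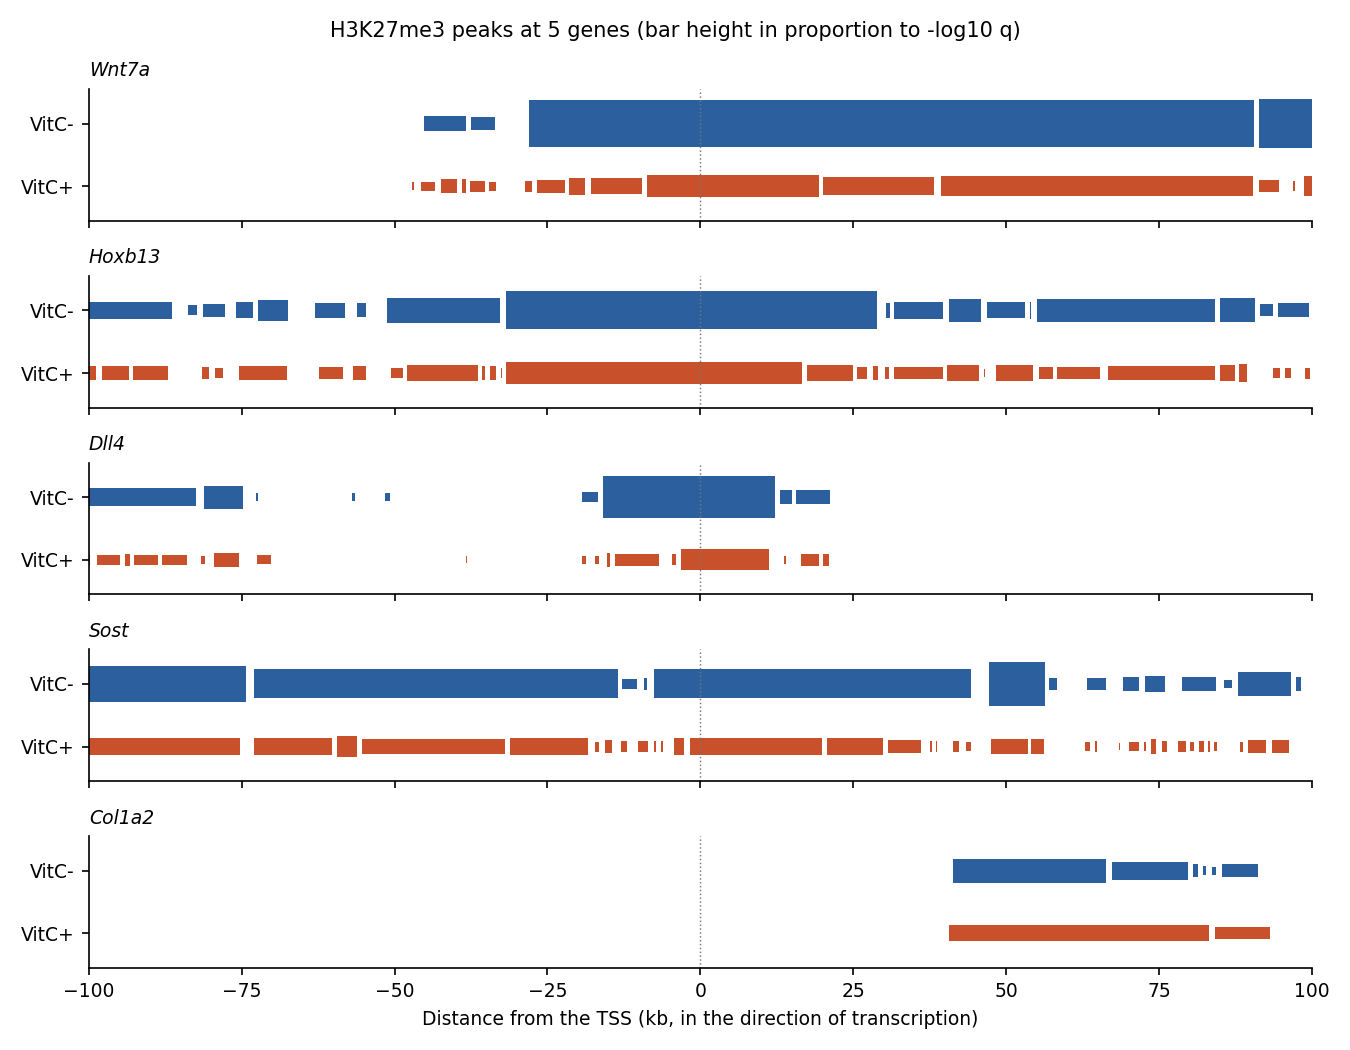
H3K27me3 peaks of the VitC- (upper) and VitC+ (lower row) list within 100 kb of the TSS of Wnt7a, Hoxb13, Dll4, Sost and Col1a2; the horizontal axis is the distance from the TSS in kb in the direction of transcription, and the height of a bar is proportional to -log10 q. The domains lie in the same places, with 4 against 16 peaks at Wnt7a and 14 against 36 at Sost, and the Col1a2 TSS is free in both lists.

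The location of covered bases with respect to genes was close in the 2 lists. Of the VitC+ length, 3.14% lay within 1 kb of a TSS, 3.17% in other exon sequence, 36.9% in introns, 6.00% within 3 kb outside a gene and 50.8% further away. The VitC- shares were 3.24%, 3.22%, 36.5%, 5.57% and 51.5%. In the genome these places made up 1.94%, 2.23%, 34.6%, 3.18% and 58.0%. The TSS share was therefore 1.62 times that of the genome in VitC+ and 1.67 times in VitC-, a gap of -0.098 percentage points, VitC+ minus VitC-, that turned to 0.10 at a -log10 q of at least 2. In VitC- the TSS share was higher at higher thresholds, at 3.66% at a -log10 q of at least 2, 4.61% at 3 and 5.08% at 5. In VitC+ it was 3.76%, 4.56% and 0.11%, the last being the level of the narrow repeat-masked sites. Bases covered in both lists had a TSS share of 3.35%, those in VitC- alone 3.11% and those in VitC+ alone 1.98%, near that of the genome.

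Coverage at the TSS differed between promoters of high and low CpG content, which also differed in RNA in bone. CpG-rich promoters, with a GC content of at least 50% and an observed over expected CpG ratio of at least 0.6 in 300 bases, numbered 8004, and CpG-poor promoters numbered 8849. CpG-poor promoters had a peak within 1 kb of a TSS in 21.3% of genes in VitC+ and 26.8% in VitC-, and CpG-rich promoters in 10.0% and 13.2%. Within 0.5 kb on either side of CpG-rich TSSs, 2.51% of bases were covered in VitC+ and 5.90% in VitC-, whereas 4.5 to 5 kb upstream 13.2% and 18.3% were covered. At the same distance downstream the coverage was 5.31% and 8.17%, so the low level at the TSS was followed by only a partial return inside the gene. Averaged over all CpG-poor TSSs there was no such low point. Coverage there was 11.3% in VitC+ and 18.3% in VitC- at the TSS, 11.1% and 16.5% upstream, and 11.7% and 17.5% downstream. The VitC- coverage was 2.35 times the VitC+ coverage at CpG-rich TSSs, and 1.39 times 4.5 to 5 kb upstream of them. At CpG-poor TSSs it was 1.62 times, and 1.49 times upstream.

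The low point was also seen at CpG-rich promoters of genes with little RNA in bone. RNA of femurs came from 3 Gulotm1Mae mice of the study, C57BL/6 knockouts that cannot make VitC, which were 20 weeks old and received VitC in their drinking water. In it, 1202 genes with CpG-rich promoters had a mean below 1 RPKM (reads per kilobase of transcript, scaled to the mapped reads of the library). Their coverage at the TSS was 10.0% in VitC+ and 23.0% in VitC-, and 4.5 to 5 kb upstream it was 21.8% and 30.6%, and downstream 22.1% and 33.2%. For the 5927 genes with CpG-rich promoters at 1 RPKM or more, coverage at the TSS was 0.998% and 2.51%. The class medians were 6.52 RPKM for CpG-rich and 0.105 RPKM for CpG-poor promoters. Among CpG-poor promoters, the 4815 genes below 1 RPKM had 13.7% and 22.6% covered at the TSS, and 11.4% and 16.9% upstream. Their TSS level in VitC- was thus close to the 23.0% of CpG-rich promoters below 1 RPKM. In VitC+ it was higher, at 13.7% against 10.0%. The 2608 at 1 RPKM or more had 7.50% and 11.8% at the TSS, against 10.9% and 16.2% upstream and 8.45% and 12.7% downstream. Femur is a tissue of many cell types and other animals, so its RNA describes these genes in bone rather than in the MC3T3-E1 dishes.

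**Figure D4:**
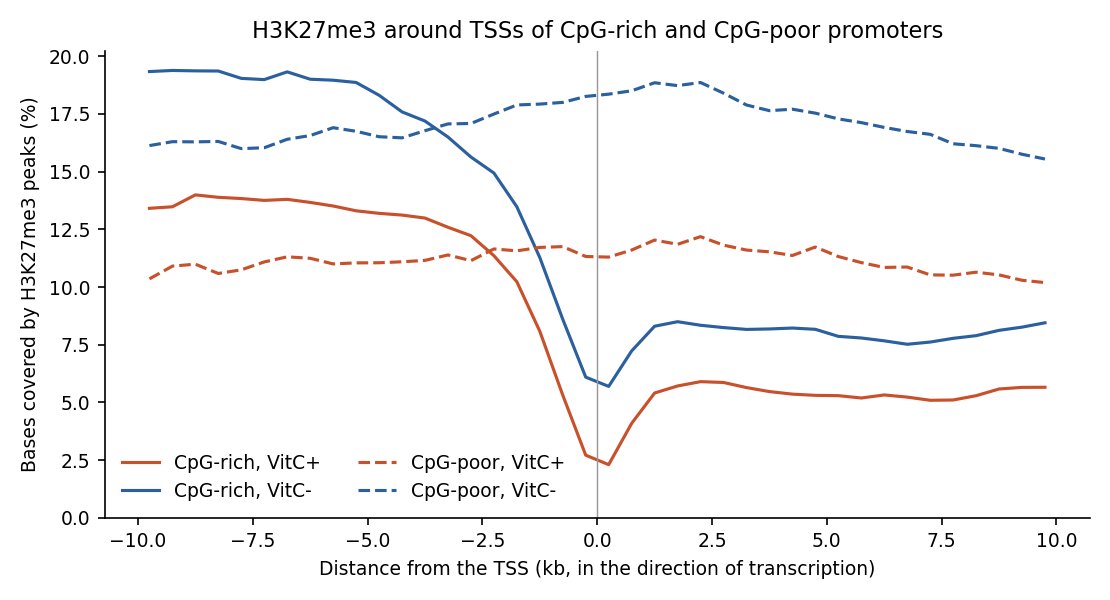
Percent of bases covered by H3K27me3 peaks in bins of 0.5 kb by distance from the TSS, in the direction of transcription, for 8004 CpG-rich (solid) and 8849 CpG-poor (dashed lines) promoters in VitC+ and VitC-. Coverage at CpG-rich TSSs goes down to 2.51% in VitC+ and 5.90% in VitC- and stays below the upstream level inside the gene. Averaged over all CpG-poor TSSs it does not dip, with 11.3% and 18.3%.

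Of the 21000 protein-coding genes, 3401, or 16.2%, had an H3K27me3 peak within 1 kb of a TSS in VitC+ and 4400, or 21.0%, in VitC-. Both lists marked 3133 of them. VitC- alone marked 1267, or 6.03% of all genes, and VitC+ alone marked 268, or 1.28%. At a -log10 q of at least 2 the shares were 6.84% in VitC+ and 15.2% in VitC-, and at 3 they were 0.471% and 7.13%. Genes marked in both lists had a median femur level of 0.17 RPKM, those marked in VitC- alone 0.27, those marked in VitC+ alone 1.53 and unmarked genes 3.66.

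The label of the cells could be set against the gene classes that carried the mark. None of 30 mesenchymal and fibroblast genes and none of 30 housekeeping genes had a promoter peak in either list. Genes of other lineages often did, beside 16.2% of all genes in VitC+ and 21.0% in VitC-. Of 20 hepatocyte and gut genes, 13 were marked in VitC+ and 18 in VitC-. Of 25 blood and immune genes, 15 and 14 were marked. Of 20 skeletal muscle genes, 10 and 12 were marked, and of 16 epithelial genes, 8 and 9. Of 18 chondrocyte genes, 6 and 8 carried the mark, and of 20 adipocyte genes, 6 and 11. Of 59 bone genes of the study's Bone60 list, 9 were marked in both lists and 3 in VitC- alone. The shares of bone genes were close to those of all genes. A peak over a promoter does not measure expression, so these counts describe the mark and not the level of these genes in the dishes.

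Transcription factors of other lineages and secreted signals were among the marked classes. Over all genes the share was 16.2% in VitC+ and 21.0% in VitC-. Of 65 neural transcription factors, 23 had a promoter peak in VitC+ and 31 in VitC-. Of 51 other lineage factors, 21 and 30 did, and of 19 Wnt ligands, 11 and 13. BMP and GDF ligands and their antagonists had 7 and 11 of 29, and neuronal channels, receptors and synapse genes 11 and 17 of 50. Skeletal and limb transcription factors, the class nearest to the lineage of the cells, had 5 and 8 of 42. Olfactory receptors, which lie in large clusters, had 69 and 91 of 1107. Of 46 ribosomal protein genes, 0 and 1 were marked, the latter being Rpl38.

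Counts by class were higher in VitC- in 15 of 19 classes with at least 10 genes, higher in VitC+ in 2 and equal in 2. The order was another when lists of equal length were compared, a comparison added after the data were seen. When the VitC- list was limited to its 20451 peaks of highest -log10 q, which cover the same 145 Mb as the VitC+ list, 13.5% of all genes were marked in VitC-, against 16.2% in VitC+, and the VitC- count was higher in 5 classes, lower in 9 and equal in 5. In that form 9 of 20 hepatocyte and gut genes, 26 of 65 neural factors and none of the mesenchymal or housekeeping genes were marked in VitC-.

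**Figure D5:**
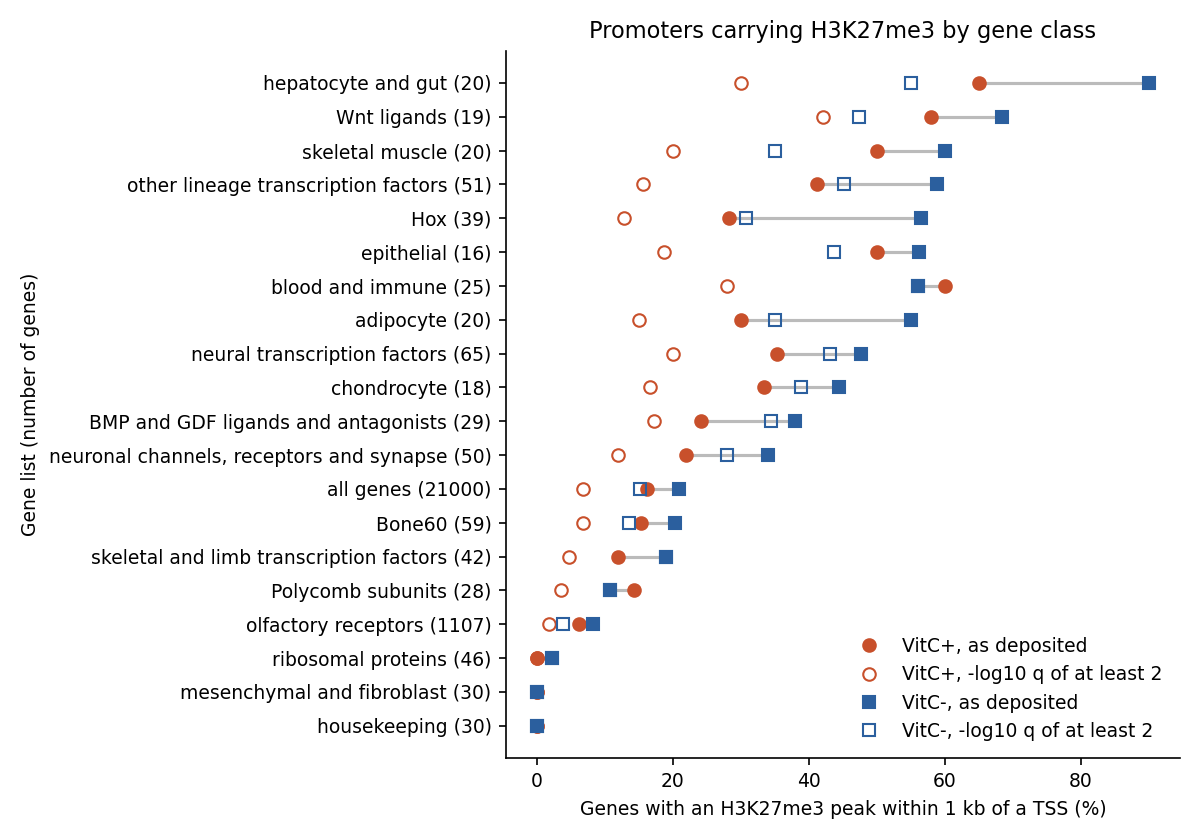
Percent of the genes of each list (number of genes in parentheses) with an H3K27me3 peak within 1 kb of a TSS in VitC+ (circles) and VitC- (squares), as deposited (filled) and at a -log10 q of at least 2 (open). Hepatocyte and gut genes reach 65% in VitC+ and 90% in VitC-, all genes 16.2% and 21.0%, and mesenchymal and housekeeping genes 0% in both.

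Single members show the size of these domains. Neurod2, a factor of cortical neurons, lay under a peak of 9.36 kb with a -log10 q of 2.88 in VitC+ and of 42.8 kb with a -log10 q of 6.64 in VitC-. Emx1, a factor of the forebrain, lay under peaks of 24.6 and 54.2 kb with a -log10 q of 2.78 and 6.11. Hnf4a, the factor of hepatocyte identity, lay under 33.4 kb in VitC+ and 55.0 kb in VitC-. Within 30 kb of their TSSs, a window of at most 60 kb that was mostly covered in VitC-, the covered length was 48.4 and 52.9 kb for Neurod2, 51.5 and 56.4 kb for Emx1, and 43.1 and 53.6 kb for Hnf4a. Gata2, a regulator of blood progenitors, had 42.9 kb in VitC+ and 50.3 kb in VitC-. Tbx4, the hindlimb factor, had 54.7 and 58.4 kb, and Myog, the myogenic factor myogenin, had 48.7 and 56.1 kb.

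Other members of these lists had much less coverage in VitC+. Foxa1, a pioneer factor of endoderm, had 4.43 kb covered within 30 kb of the TSS in VitC+ and 25.4 kb in VitC-. Serpina1a, a liver protease inhibitor, had 0.255 and 15.8 kb. Ucp1, the uncoupling protein of brown fat, had 2.95 and 16.6 kb. Tal1, a regulator of blood formation, had 7.76 and 29.2 kb, and Wnt11 had 12.0 and 30.7 kb.

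Across all genes, the covered length within 30 kb of the TSS was lower in VitC+. Of the 12928 genes with a covered base in either list, 11571 had less in VitC+ and 1350 more, and the median log2 ratio, with 1000 bp added to each length, was -0.60. At least 2-fold less was covered at 3698 genes (28.6%) and at least 2-fold more at 74 (0.572%). Ratios of the mean covered length per class, VitC+ over VitC-, lay between 0.56 and 0.77 in the 19 classes and at 0.66 over all genes. The lowest was that of the housekeeping genes, with means of 1.62 and 2.89 kb, and the highest that of the Polycomb subunits, with 8.93 and 11.6 kb. With peaks of at least 3-fold enrichment, 826 genes had at least 2-fold less in VitC+ and 2744 at least 2-fold more, and with VitC- cut to equal length 611 and 2342, the opposite order to that in the full lists.

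The genes with the largest deficit in VitC+ had most of their window covered in VitC-. This follows from their ranking by the deficit within a window of at most 60 kb. Plch2, a neuronal phospholipase C, had 11.3 kb in VitC+ and 55.7 kb in VitC-, and Trp73, a p53 relative, 9.34 and 51.9 kb. Myh6, the cardiac myosin heavy chain, had 12.8 and 50.1 kb, and Casz1, a cardiac and neural zinc finger factor, 18.9 and 54.8 kb. Begain and Fam181a, both on chromosome 12, had 8.18 against 42.3 kb and 3.76 against 36.8 kb. All of the 10 largest deficits were at least 2-fold, which deficits of this size imply in such a window. Excesses in VitC+ were smaller. The largest was at Agpat3, an acyltransferase of lipid synthesis, with 30.01 kb in VitC+ and 23.5 kb in VitC-. Of the 10 largest excesses only Wdr95, with 7.70 and 2.22 kb, and Jazf1, with 6.27 and 0.809 kb, were at least 2-fold. Hes1, a Notch target, had 14.2 and 9.71 kb, and Irs1, an adaptor of the insulin receptor, 9.60 and 5.25 kb. VitC+ had over 20 kb less than VitC- at 295 genes and over 5 kb more at 7, and Smco3, left out of those 10 because its TSS lies within 100 kb of that of Art4, is among the latter.

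The bone genes of the study's Bone60 list, of which 59 were matched, fell on both sides. For 22 of them no base within 30 kb of the TSS was covered in either list. These included Runx2 and Sp7, the factors that set osteoblast identity, Col1a1, Sparc, Ibsp, Spp1, Bglap and Mepe, which encode proteins of bone matrix, and the transcription factors Mef2c and Dlx5. Promoter peaks were present in both lists at 9 genes: Cdh15, Dll4, Dkk1, Dnase1l3, Gpihbp1, Heyl, Mmp9, Slc36a2 and Sost. Acp5, Col13a1 and Slc13a5 had one in VitC- alone. The shares, 15.3% in VitC+ and 20.3% in VitC-, were close to the 16.2% and 21.0% of all genes.

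Among the 37 Bone60 genes with coverage, 16 (43.2%) had at least 2-fold less in VitC+ and 1 (2.70%), Ushbp1, at least 2-fold more, beside 28.6% and 0.572% of all genes, with a median log2 ratio of -0.79 beside -0.60 for all genes. Sost had 49.1 kb covered in VitC+ and 57.2 kb in VitC-, with a promoter peak of 21.5 kb at a -log10 q of 2.69 and of 51.8 kb at 4.67. Mmp9, a gelatinase of osteoclasts, had 34.7 and 50.5 kb, and Col13a1, a transmembrane collagen, 28.2 and 54.2 kb. Pth1r, the receptor of parathyroid hormone, had 0 and 6.18 kb, and Phospho1, a phosphatase of matrix vesicles, 0.941 and 9.85 kb. Bmp8b had 1.24 and 9.19 kb, Notch3 8.61 and 20.0 kb, and Siglec15 5.40 and 9.41 kb, and none of these last 3 had a peak within 1 kb of the TSS. The Bone60 list was compiled by the study on bone, so its members are not an independent sample of genes, and with peaks of at least 3-fold enrichment its median log2 ratio was 0.58, beside 0.50 for all genes.

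The 4 Hox clusters, which set position along the body axis, differed from each other in both lists. Hoxb genes had a mean of 27.6 kb covered within 30 kb in VitC+ and 42.8 kb in VitC-, with promoter peaks at 5 and 10 of 10 genes. Hoxd genes had 29.2 and 42.6 kb, with peaks at 4 and 8 of 9. Hoxa genes had 3.85 and 8.60 kb, with peaks at 1 and 3 of 11, all among Hoxa10, Hoxa11 and Hoxa13. Hoxc genes had 4.47 and 9.77 kb, with a peak in either list only at Hoxc4. The Hoxb13 promoter lay under a peak of 48.3 kb in VitC+ and 60.7 kb in VitC-. Hoxb2, Hoxb3, Hoxb4, Hoxb5 and Hoxb7 had a promoter peak in VitC- only, and Hoxb4 and Hoxb5 had covered lengths of 11.6 against 31.7 kb and 20.2 against 41.9 kb. Over the 34 Hox genes with coverage the median log2 ratio was -0.76, beside -0.60 for all genes, and 10 (29.4%) had at least 2-fold less in VitC+, close to the 28.6% of all genes. Without the peaks that overlap an H3K9me3 peak of the same group this median was -0.10, with peaks of at least 3-fold enrichment it was 0.14 and with VitC- cut to equal length -0.20.

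Of 28 genes of the Polycomb machinery itself, 4 (14.3%) had a promoter peak in VitC+ and 3 (10.7%) in VitC-, beside 16.2% and 21.0% of all genes. Phc2, a subunit of PRC1, and Phf19, a partner of PRC2, were marked in both lists, with covered lengths of 45.5 and 57.8 kb and of 34.1 and 40.7 kb. Cbx2 and Pcgf6 had a promoter peak in VitC+ only and Pcgf5 in VitC- only. Ezh2, Suz12, Ezh1 and Jarid2 had none in either list. None of the 5 H3K27 demethylases and relatives had a promoter peak, and Kdm6b had 17.3 and 21.9 kb covered within 30 kb. No base was covered within 30 kb of Cdkn2a or Cdkn2b, the cell-cycle inhibitors that Polycomb represses in many cell types.

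Covered length was uneven across chromosomes, and alike in both lists, with a Pearson correlation of 0.98 over the 19 autosomes. In VitC- it ran from 4.40% of chromosome 3 to 16.4% of chromosomes 11 and 19, and in VitC+ from 2.04% of chromosome 14 to 13.5% of chromosome 19. On chromosome X it was 0.082% in VitC+ and 0.326% in VitC-. All 19 autosomes had less in VitC+, by log2 ratios from -0.27 on chromosome 19 to -1.29 on chromosome 12. Autosomes with more coverage in VitC- had the smaller deficit in VitC+, with a Pearson correlation of 0.86 and a Spearman correlation of 0.82 over the 19, given as a description since both axes use the VitC- list. Chromosome X was also low for the other marks, at 0.272% and 0.256% for H3K9me3 and 1.29% and 2.18% for 5-hydroxymethylcytosine (5hmC), against 1.60% and 2.45% and against 7.25% and 5.46% of all chromosomes in VitC+ and VitC-.

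Overlap with the other marks of the same cell line differed between the groups. The 5hmC lists came from other samples than the H3K27me3 lists. Labels of the 5hmC samples give the longer culture time stated above, whereas the H3K27me3 peak names give the shorter one. These marks may therefore differ in day of culture, and the part of this in the overlaps was not tested. H3K9me3 peaks of the same group covered 2.64% of the VitC+ H3K27me3 length, against 1.60% of the genome, and 5.54% of the VitC- length, against 2.45%. For 5hmC, a mark linked to active chromatin, the VitC+ peaks covered 3.26% of the VitC+ H3K27me3 length, against 7.25% of the genome, and the VitC- peaks covered 5.75% of the VitC- length, against 5.46%. H3K27me3 domains thus held less of the VitC+ 5hmC than the genome did. Regions with H3K27me3 in VitC- alone had 5hmC peaks over 3.61% of their length in VitC+ and 5.42% in VitC-, and regions with H3K27me3 in both lists over 3.05% and 6.06%. Promoters without the mark had a mean of 1300.5 bp of 5hmC peaks within 5 kb of the TSS in VitC+ and 551 bp in VitC-, and promoters marked in both lists had 555 and 534 bp.

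Base composition separated the wide domains only slightly. The median GC content of peaks was 46.6% in VitC+ and 46.0% in VitC-, against 41.7% for the genome, and reached 48.3% and 47.6% in peaks of 10 kb and over. The observed over expected CpG ratio had medians of 0.181 and 0.179, close to the 0.190 of the genome.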

How the data were processed

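The authors trimmed the ChIP-seq reads, mapped them to mm10 and called broad peaks with MACS2 at a stated false discovery rate of 0.05. The labels name FastQC 0.72, Trim Galore 0.4.3.1, BWA 0.7.15.1 and MACS2 2.1.1.20160309.6, whereas the methods give another MACS2 release. The deposited lists reach a -log10 q of 1.01, beyond the stated rate. Each deposited peak carries its mean fold enrichment (a ratio over the local background), its mean -log10 p-value and its mean -log10 q-value. The deposited 5hmC and H3K9me3 lists of the same cell line and the femur RPKM values, which the authors computed, served as descriptions.

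All chromosome lengths matched RefSeq GRCm38.p6, and 96 VitC+ and 113 VitC- peaks outside the main chromosomes were left out after the counts by threshold. Covered length was taken within 30 kb of the TSS, and log2 ratios used 1000 bp added to each length. A gene was counted at a 2-fold ratio among genes with a covered base in either list, and as marked with a peak within 1 kb of a TSS. Analyses ran in Python 3.11.15 with numpy 2.4.6 and pandas 2.3.3, and the interval functions passed 100 of 100 checks when tested on simulated data. With 1 list per group there was no test, and depth and counting intervals are unknown.

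Genes were named as those at the 10 highest peaks of each list, the 10 largest deficits and excesses in VitC+, those in the 10 widest runs, up to 4 members per gene list by difference and by -log10 q, Bone60 genes with a promoter peak, and Siglec15, Bmp8b and Notch3. Other named genes, among them those whose promoters are shown apart from this rule and those without coverage, were chosen after their values were seen. The members, gene lists and thresholds were chosen with earlier results of these data known. Alternatives were higher thresholds on q, the 20000 highest peaks, a fold of at least 3, leaving out peaks that overlap H3K9me3, joining peaks, a window of 5 kb, 100 bp added, and VitC- cut to equal length.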

Additional observations from a re-analysis of the deposited data

How the results depend on the processing

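No paired analysis was possible because each group has 1 peak list and no list per dish, and for the same reason leaving out a replicate was not run. Of 80 alternative values for 9 results, 9 had the opposite direction, 33 were counted as moved and 38 moved by less than a factor of 1.5. For log2 ratios the factor is that of the ratio itself. Those counted as moved did so by more than this factor, except the number of peaks with the 20000 highest, which is fixed at 0.00. The cause was not tested. Settings that limit the peaks also leave fewer of them. Log2 ratios are VitC+ to VitC-.

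The number of peaks (0.04 in the full lists) was -0.15 at a false discovery rate of 0.05, -0.90 at a -log10 q of at least 2, -0.79 at 5, -0.074 with peaks joined, 0.00 by construction with the 20000 highest peaks, 2.46 with a fold of at least 3 and 2.08 with VitC- cut to equal length, which was added after the data were seen. Covered length (-0.69) was -1.44 at a -log10 q of 2, -6.61 at 5 and 0.22 with a fold of at least 3. Median width (-0.46) was -4.86 at a -log10 q of 5, -1.24 with the 20000 highest peaks, -2.85 with a fold of at least 3 and -2.28 at equal length. The share of VitC- length also covered in VitC+ (52.3%) was 33.9% at a -log10 q of 2 and 0.543% at 5, and 24.4% of VitC- peaks had at least 50% of their length covered.

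The TSS share, VitC+ minus VitC- (-0.098 percentage points), was 0.10 at a -log10 q of 2, 0.064 with peaks joined, -4.96 at a -log10 q of 5, -0.22 with the 20000 highest peaks, -1.06 with a fold of at least 3 and -0.71 at equal length. Genes with at least 2-fold less in VitC+ (3698) numbered 6304 at a -log10 q of 2, 678 at 5, 826 with a fold of at least 3, 1686 within 5 kb and 611 at equal length. Genes with at least 2-fold more (74) numbered 1 at a -log10 q of 5, 337 with the 20000 highest peaks, 2744 with a fold of at least 3, 1604 without peaks overlapping H3K9me3, 178 with peaks joined, 564 with 100 bp added and 2342 at equal length. The Bone60 median (-0.79) was -5.07 at a -log10 q of 5, 0.58 with a fold of at least 3 and -0.14 at equal length. The Hox median (-0.76) was -1.47 at a -log10 q of 2, -5.90 at 5, 0.14 with a fold of at least 3, -0.10 without peaks overlapping H3K9me3 and -0.20 at equal length. The median over all genes (-0.60) was itself -1.43, -3.78, 0.50, -0.48 and 0.05 at a -log10 q of 2, at 5, with a fold of at least 3, without H3K9me3 and at equal length.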
